A study of Homo sapiens with 6 samples.

Results

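The genes described here are 10 members of the fibroblast growth factor (FGF) system, namely the ligands FGF2, FGF4, FGF8, FGF17, FGF19 and FGF20 and the receptors FGFR1, FGFR2, FGFR3 and FGFR4. They were taken by Ensembl ID, so that each symbol matched 1 of the 40396 rows of the expression table. RNA was collected on day 3 of definitive endoderm (DE) differentiation of H1, a line of human embryonic stem cells. All samples were kept in DMEM with B27 and Glutamax, and received 50 ng/mL activin A for the 3 days and in the first 24 h also 2.5 µM CHIR99021, a GSK3 inhibitor that activates Wnt signaling. The control group (3 libraries) received no saracatinib (SAR), and the SAR group (3 libraries) received 0.5 µM SAR over the whole period. The study names DMSO as the control for its protein blots, but not for these libraries. SAR is an inhibitor of Src family kinases, although the study reports that low doses such as this did not effectively inhibit Src phosphorylation. It also reports lower phosphorylation of focal adhesion kinase at some sites. All libraries came from 1 cell line, and nothing states whether the 3 libraries of a group were separate cultures, so p-values measure only the spread between these libraries, which may be technical.

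FGF ligands are secreted proteins that bind receptor tyrosine kinases on the cell surface, together with heparan sulfate chains or Klotho co-receptors. The activated receptor recruits adaptors such as FRS2 and signals through RAS and ERK, and ERK in turn induces feedback inhibitors of the Sprouty and DUSP families. In the embryo, FGF4 and FGF8 are needed for cells to leave the primitive streak during gastrulation, and FGF2 is the ligand commonly supplied to cultured human pluripotent stem cells.

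Expression was given as FPKM, the reads of a gene scaled by its length and by the total of the library. The library totals recovered from the FPKM ranged from 18877964 to 24419937 reads for the control group and from 16681280 to 18389543 reads for the SAR group. Genes were tested with limma on log2(FPKM + 0.1) where their mean over the 6 libraries was at least 0.5 FPKM. This left 16371 genes, all 10 FGF genes among them. A gene is said to have risen or fallen where its Benjamini-Hochberg adjusted p, taken over all tested genes, was under 0.05, and to be called where its log2 fold change (SAR minus control) was also above 1 or under -1. The fold changes understate the change of genes with low FPKM. Over all tested genes the median log2 fold change was 0.12 as deposited and 0.00 with libraries brought to a common scale by their median ratios (median-ratio rescaling). Bulk RNA cannot tell apart fewer cells of a type and less RNA per cell.

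Of the 10 FGF genes, 5 rose with SAR (FGF4, FGF20, FGF19, FGFR2 and FGFR1) and 1 fell (FGF17), where 23.7% of all tested genes rose and 9.55% fell. FGF4 and FGF20 were called upregulated, at log2 fold changes of 1.36 and 1.30, and 0 of the 10 genes were called downregulated. The background of these calls was 3.41% upregulated and 1.58% downregulated genes. The median log2 fold change of the 10 genes was 0.49, against 0.12 for all tested genes, and 0.37 against 0.00 after median-ratio rescaling. The 10 genes and the pathway lists below were chosen with earlier results of these data known. Their counts and medians beside those of all genes are therefore a description and not a test. The SAR libraries lay wholly above the control libraries in 5 of the 10 genes and wholly below in 1, while 35.5% and 15.2% of all tested genes did so. After median-ratio rescaling the 10 genes again held 5 that rose and 1 that fell, where 13.8% of all tested genes rose and 15.5% fell. Among all called genes, 68.3% were upregulated with FPKM as deposited and 52.7% after that rescaling.

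**Figure D1:**
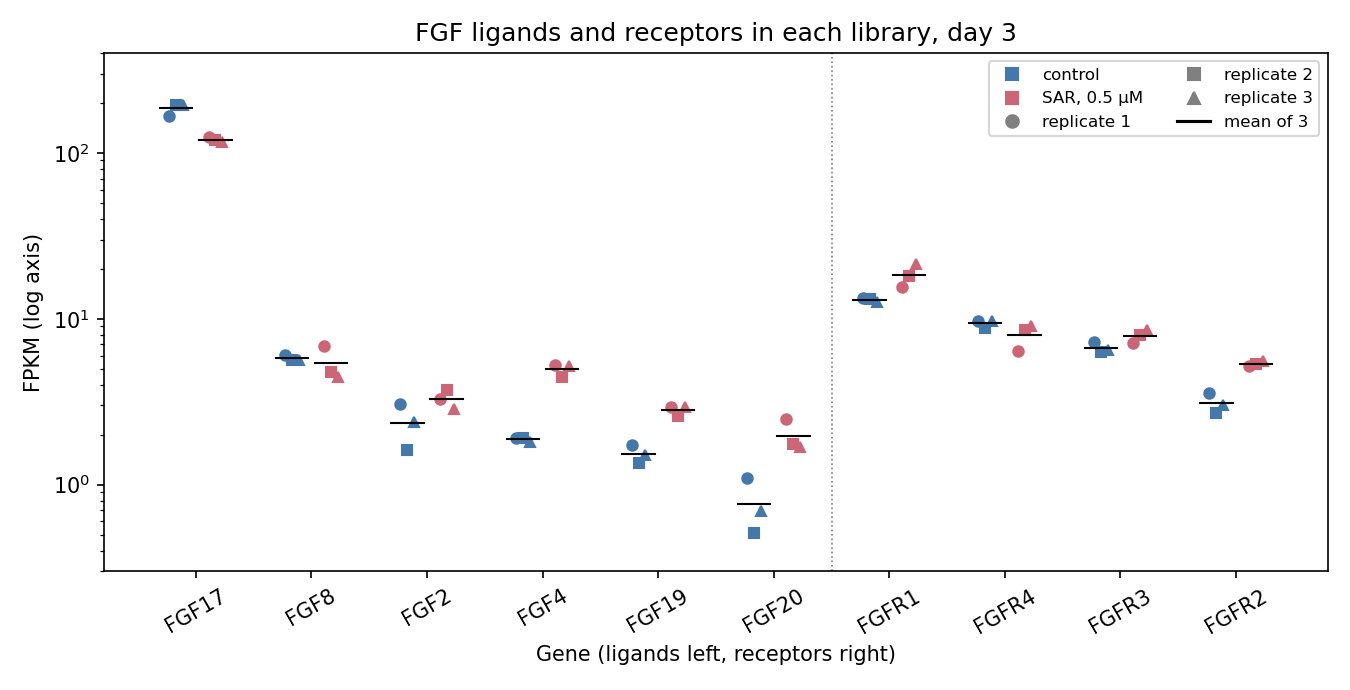
FPKM (log axis) of each FGF ligand and receptor in each library, in control (blue) and with SAR (red). Symbols mark the replicate number and lines the mean of 3 libraries. FGF17 lies above all other genes shown in every library, and for FGF4, FGF19, FGF20, FGFR1 and FGFR2 all SAR libraries lie above all control libraries.

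FGF17, a ligand of the same subfamily as FGF8, was by far the most abundant FGF transcript in the cells. Its level was 167.8, 195.5 and 194.1 FPKM in control replicates 1, 2 and 3 and 125.3, 118.9 and 115.9 FPKM in SAR replicates 1, 2 and 3. Every SAR library was lower than every control library. The mean was 185.8 ± 15.6 FPKM in control and 120.0 ± 4.82 FPKM with SAR (SD, n = 3). FGF17 fell with a log2 fold change of -0.63 ± 0.0745 (standard error), short of the fold change threshold, and limma gave it an adjusted p of 0.00197. By mean FPKM, FGF17 (ENSG00000158815, chromosome 8 from 22042398 to 22048809 in GENCODE 29 on GRCh38) ranked 183 of the 16371 tested genes in control and 306 with SAR. It was counted on 12042 to 15689 reads per control library and 6620 to 7004 reads per SAR library.

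FGF8 stood next among the ligands in control. Its level was 6.07, 5.62 and 5.62 FPKM in control replicates 1, 2 and 3 and 6.86, 4.79 and 4.48 FPKM in SAR replicates 1, 2 and 3. The groups overlapped, because SAR replicate 1 lay above and the other SAR libraries below the control range. The log2 fold change of FGF8 was -0.12 (95% interval -0.49 to 0.24, adjusted p = 0.559 from limma). Without SAR replicate 1 it was -0.31 and passed the test (adjusted p = 0.0349 from limma). FGF17 exceeded FGF8 by 27.6- to 34.8-fold in the control libraries and by 18.3- to 25.8-fold in the SAR libraries, on the FPKM scale, which divides by gene length.

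FGF4 had the largest rise of the 10 genes. In pluripotent cells it is expressed as a target of POU5F1 and SOX2. It was at 1.90, 1.92 and 1.81 FPKM in control replicates 1, 2 and 3 and at 5.27, 4.46 and 5.21 FPKM in SAR replicates 1, 2 and 3, so that the lowest SAR library was above the highest control library. The mean FPKM of FGF4 was 2.65 times as high with SAR, and it rose by 1.36 ± 0.0884 on the log2 scale (standard error), with an adjusted p of 0.000335 in limma. The gene (ENSG00000075388) lies on chromosome 11 from 69771016 to 69775403 on the minus strand, and it was counted on 108 to 148 reads in control and 239 to 303 reads with SAR. Its call held under all the alternatives tried, with log2 fold changes from 1.05 to 1.43. Of the marker genes, SOX2 also rose, from 22.1 ± 6.42 to 39.8 ± 3.18 FPKM, whereas POU5F1 was at 180.5 ± 41.0 and 219.2 ± 4.43 FPKM and did not pass the test (log2 fold change 0.31, adjusted p = 0.167 from limma). Whether SOX2 has a part in the level of FGF4 was not tested.

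FGF20, a ligand of the FGF9 subfamily, had the lowest mean FPKM of the 10 genes as deposited. It was at 1.09, 0.512 and 0.691 FPKM in control replicates 1, 2 and 3 and at 2.48, 1.76 and 1.69 FPKM in SAR replicates 1, 2 and 3. All SAR libraries were higher, and replicate 1 was the highest library of each group. The log2 fold change of FGF20 was 1.30 (standard error 0.270, adjusted p = 0.0125 from limma) on 23 to 44 reads per control library and 55 to 76 reads per SAR library, and with a pseudocount of 1 it was 0.76, under the threshold. The gene (ENSG00000078579) lies on chromosome 8 from 16992169 to 17002181.

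FGF19, which signals from endoderm derivatives through FGFR4 and the co-receptor KLB, was at 1.73, 1.35 and 1.51 FPKM in control replicates 1, 2 and 3 and at 2.93, 2.59 and 2.93 FPKM in SAR replicates 1, 2 and 3. The groups were apart, and FGF19 rose with a log2 fold change of 0.84 ± 0.114 (standard error), for which limma gave an adjusted p of 0.00304. FGF19 was counted on 52 to 98 reads per library. FGF19 lies on the same chromosome and strand as FGF4, from 69698232 to 69704642.

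FGF2 was at 3.07, 1.63 and 2.39 FPKM in control replicates 1, 2 and 3 and at 3.30, 3.72 and 2.87 FPKM in SAR replicates 1, 2 and 3. The groups overlapped, with control replicate 1 above SAR replicate 3. The log2 fold change of FGF2 was 0.50 (95% interval -0.02 to 1.02, adjusted p = 0.119 from limma). It passed without control replicate 1, at 0.71 (adjusted p = 0.0396 from limma). GENCODE 29 places 11.9% of the exon bases of FGF2 opposite to exons of NUDT6, and the strand setting of the counting is not given in the sources used here.

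Among the ligands, the order of mean FPKM in control was FGF17, FGF8, FGF2, FGF4, FGF19 and FGF20. The library ranges of FGF2 and FGF4 overlapped, and the other neighbours in that order were apart. With SAR the order was FGF17, FGF8, FGF4, FGF2, FGF19 and FGF20, where the ranges of FGF8 and FGF4 overlapped and those of FGF2 and FGF19 did. The summed level of the 6 ligands was 198.1 ± 14.2 FPKM in control and 138.4 ± 6.83 FPKM with SAR (SD, n = 3), lower in every SAR library than in every control library. The other 5 ligands without FGF17 summed to 12.3 ± 1.44 FPKM in control and 18.4 ± 2.07 FPKM with SAR, higher in every SAR library. FGF17 thus made up 93.7% ± 1.21 of the ligand FPKM in control and 86.7% ± 0.838 with SAR. The share of FGF4 was 0.951% ± 0.0879 in control and 3.60% ± 0.320 with SAR. With GENCODE 29 gene lengths in place of the deposited ones, the ranges of FGF19 and FGF20 overlapped in both groups, and with SAR both were apart from FGF2. The mean with SAR was then lowest for FGF19, at 2.10 FPKM against 2.15 FPKM for FGF20. Shares within a library do not depend on the scaling between libraries.

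**Figure D2:**
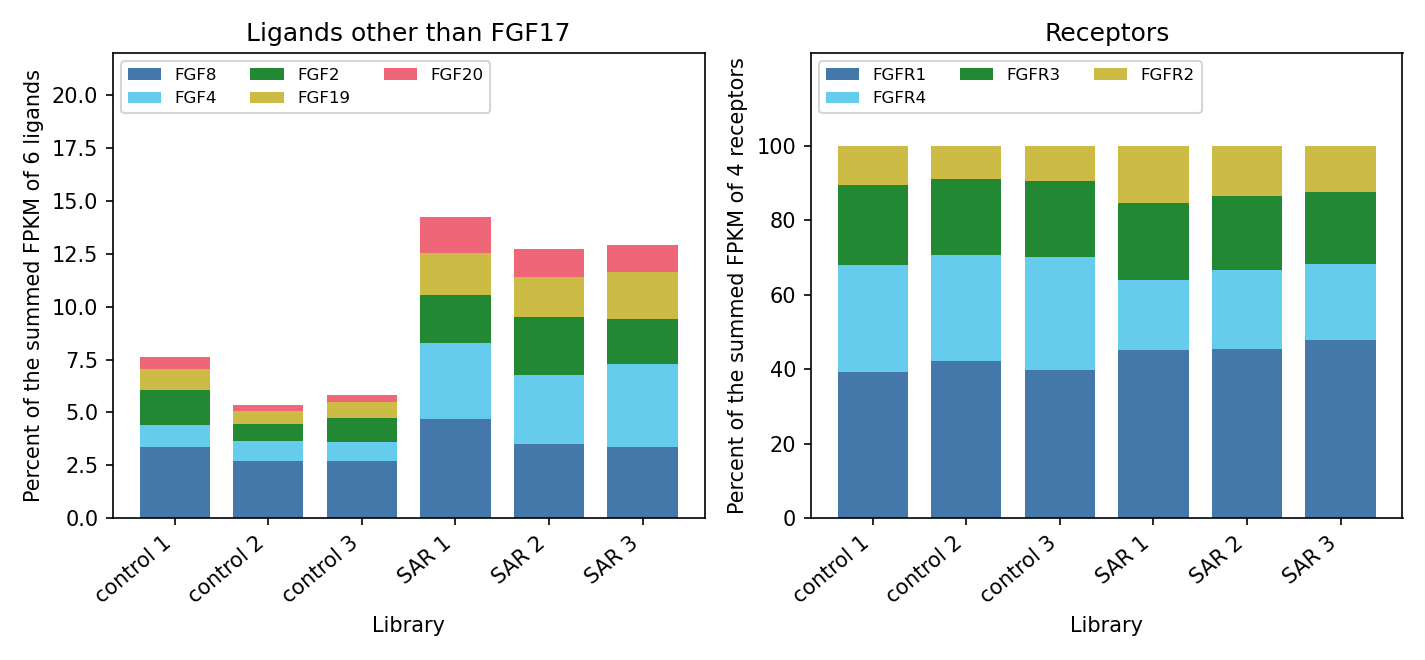
Share of each gene in the summed FPKM of the 6 ligands (left, FGF17 left out of the bars) and of the 4 receptors (right), 1 bar per library. Together, the ligands other than FGF17 take a larger share in each SAR library than in any control library, and FGFR4 takes 18.6% to 21.3% with SAR against 28.5% to 30.5% in control. The FPKM of FGFR4 itself overlapped between the groups.

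The promoters of FGFR2, which rose, and of FGFR3 and FGFR4, which did not pass the test, are shown. That of FGFR1, which also rose, was not analysed here, so the sequences cover 3 of the 4 receptors. Of 5 RefSeq start sites of FGFR2 and 2 of FGFR4, the one whose promoter window holds the GENCODE 29 gene start was taken. The sequences are the 250 bases before the start site (RefSeq, build GRCh38.p14), written 5′ to 3′ on the strand of the gene. Capitals mark the GC box (GGGCGG on either strand), a binding motif of SP1-type factors.
FGFR2, chr10:121598445-121598694, minus strand: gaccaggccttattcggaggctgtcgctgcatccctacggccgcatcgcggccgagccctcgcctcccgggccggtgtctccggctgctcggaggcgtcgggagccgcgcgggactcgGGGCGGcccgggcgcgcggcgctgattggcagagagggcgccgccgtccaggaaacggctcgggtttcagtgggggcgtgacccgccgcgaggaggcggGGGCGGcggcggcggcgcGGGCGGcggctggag
FGFR3, chr4:1793043-1793292, plus strand: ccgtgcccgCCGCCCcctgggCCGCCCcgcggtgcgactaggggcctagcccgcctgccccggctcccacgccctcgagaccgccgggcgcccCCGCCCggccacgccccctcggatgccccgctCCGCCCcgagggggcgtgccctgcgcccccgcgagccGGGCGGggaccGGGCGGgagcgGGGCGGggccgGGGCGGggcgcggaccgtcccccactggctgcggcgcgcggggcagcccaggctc
FGFR4, chr5:177086665-177086914, plus strand: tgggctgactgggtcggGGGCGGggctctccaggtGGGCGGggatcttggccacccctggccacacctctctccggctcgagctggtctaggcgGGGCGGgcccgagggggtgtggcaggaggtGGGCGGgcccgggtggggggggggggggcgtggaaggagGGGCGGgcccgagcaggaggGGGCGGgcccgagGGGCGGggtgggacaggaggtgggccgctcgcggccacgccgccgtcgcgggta
The GC box occurred 3 times in the FGFR2 window, 8 times in that of FGFR3 and 7 times in that of FGFR4, and 42.6% of all 35116 promoter windows of the same length held at least 1. The windows were 78.4% (FGFR2), 86.8% (FGFR3) and 79.6% (FGFR4) G and C. The CCAAT box (CCAAT, held by 32% of all windows) occurred once, in the FGFR2 window. The TATA box (TATAAA, 10.7%), the forkhead motif (TGTTTAC, 2.98%), the TCF/LEF motif (TTCAAAG, 3.8%) and the T-box motif (AGGTGTGA, 0.786%) were found on neither strand in these 3 windows. The windows at the other start sites of FGFR2 held 0 or 1 GC boxes and were 42.8% to 50.0% G and C. That of FGFR4 held 0 and was 57.2% G and C. Which start sites these cells used was not determined.

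FGFR1, the receptor with the highest FPKM, was at 13.3, 13.1 and 12.7 FPKM in control replicates 1, 2 and 3 and at 15.5, 18.2 and 21.3 FPKM in SAR replicates 1, 2 and 3. All SAR libraries were higher, and they differed more from each other (SD 2.90) than the control libraries did (SD 0.306). The log2 fold change of FGFR1 was 0.48 (standard error 0.111, adjusted p = 0.0177 from limma). It did not pass without control replicate 2 (adjusted p = 0.0513 from limma), control replicate 3 (0.0631) or SAR replicate 2 (0.0552). FGFR1 (ENSG00000077782) lies on chromosome 8 from 38400215 to 38468834, and it was counted on 4116 to 6734 reads per library, with 2.1% of its exon bases opposite to exons of other genes.

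FGFR2, which exists as epithelial and mesenchymal splice forms with different ligands, had the largest rise of the 4 receptors. It was at 3.56, 2.71 and 3.00 FPKM in control replicates 1, 2 and 3 and at 5.22, 5.34 and 5.54 FPKM in SAR replicates 1, 2 and 3, with no overlap. The log2 fold change of FGFR2 was 0.78 (standard error 0.104, adjusted p = 0.00279 from limma), and it passed under all the alternatives tried. Values per gene do not separate its splice forms.

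FGFR3 was at 7.21, 6.34 and 6.51 FPKM in control replicates 1, 2 and 3 and at 7.15, 7.99 and 8.50 FPKM in SAR replicates 1, 2 and 3. The groups overlapped through control replicate 1 and SAR replicate 1. Its log2 fold change of 0.23 (95% interval 0.03 to 0.44) did not pass (adjusted p = 0.0774 from limma), and it was 0.11 after median-ratio rescaling. FGFR4, the main receptor for FGF19, was at 9.75, 8.80 and 9.72 FPKM in control replicates 1, 2 and 3 and at 6.37, 8.53 and 9.03 FPKM in SAR replicates 1, 2 and 3. SAR replicate 1 was the lowest library and SAR replicate 3 lay within the control range. The log2 fold change of FGFR4 was -0.25 (95% interval -0.57 to 0.06, adjusted p = 0.178 from limma), and it did not pass under any alternative.

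The summed level of the 4 receptors was 32.2 ± 1.46 FPKM in control and 39.6 ± 5.08 FPKM with SAR (SD, n = 3). FGFR1 made up 40.4% ± 1.62 of it in control and 46.2% ± 1.53 with SAR, FGFR2 made up 9.57% ± 0.887 and 13.7% ± 1.42, and FGFR4 made up 29.3% ± 1.07 and 20.1% ± 1.36. For these 3 receptors the shares of the groups did not overlap. For FGFR3 they did, at 20.4% to 21.3% in control and 19.2% to 20.9% with SAR. The shares of a library add up to a fixed total, so they do not move independently, and the FPKM of FGFR4 itself overlapped between the groups. By FPKM, the groups were apart for 50.7% of all tested genes. The ratio of FGFR1 to FGFR4 was 1.30 to 1.49 in the control libraries and 2.13 to 2.43 in the SAR libraries. Shares and ratios are given without a p-value, since with 3 libraries in each group the smallest p of an exact permutation test is 0.1.

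The order of the receptors depends on the gene length behind the FPKM. As deposited, the order in control was FGFR1, FGFR4, FGFR3 and FGFR2, with all neighbours apart. The FPKM of FGFR2 fitted whole reads with a length of 18813 bases, whereas its exons in GENCODE 29 cover 7578 bases, and for FGFR1 the lengths were 17201 and 13842 bases. With GENCODE 29 lengths, an alternative added after the data were seen, FGFR2 was at 7.67 ± 1.06 FPKM in control and 13.3 ± 0.395 FPKM with SAR (SD, n = 3). It then overlapped with FGFR4 and FGFR3 in control and ranked next to FGFR1 with SAR, above FGFR4 at 7.95 ± 1.41 FPKM. The receptor shares given above rest on the deposited lengths, while the fold change of a gene does not depend on its length other than through the added 0.1.

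**Figure D3:**
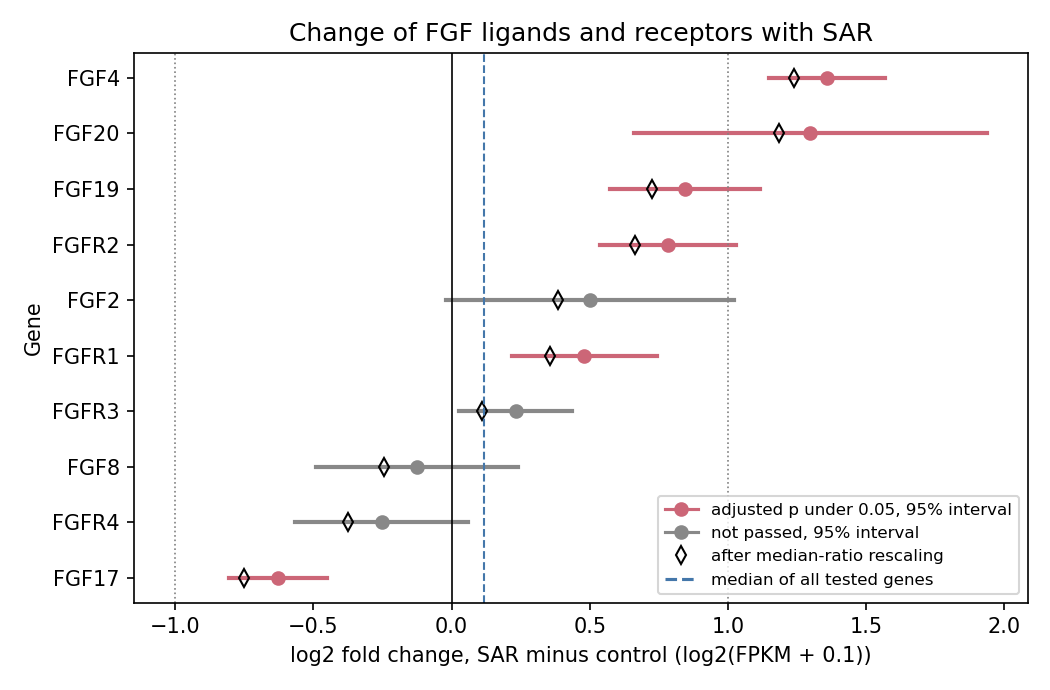
Log2 fold change (SAR minus control) of each FGF gene from limma, with its 95% interval, on the log2(FPKM + 0.1) scale. Red marks an adjusted p under 0.05, open diamonds the value after median-ratio rescaling, and the dashed line the median of all tested genes (0.12). Values run from -0.63 for FGF17 to 1.36 for FGF4.

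Of the other 12 FGF ligand genes, 1 passed the minimum level. This was FGF1, at 0.722 ± 0.319 FPKM in control and 0.435 ± 0.0770 FPKM with SAR, which did not pass the test (adjusted p = 0.291 from limma). Of the untested ligands, FGF3, FGF5, FGF7, FGF9 and FGF21 had 0 to 6 reads per library, and FGF6, FGF16, FGF22 and FGF23 had 0 to 26 reads. These ligands are named after their values were seen. The intracellular FGF homologous factors, which bind sodium channels and not FGF receptors, held 2 tested genes of 4. FGF13 fell from 3.22 ± 0.200 to 2.32 ± 0.187 FPKM (log2 fold change -0.46) and FGF12 rose from 1.56 ± 0.0898 to 2.03 ± 0.190 FPKM (0.36), although FGF12 did not pass after median-ratio rescaling.

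Beyond the ligands and receptors, lists of FGF pathway genes held 103 genes, of which 78 were tested. Of these, 10 rose and 18 fell, where 23.7% of all tested genes rose and 9.55% fell. The counts of the single lists as deposited are to be read against the same shares. In either direction 35.9% of the 78 passed, where 33.3% of all tested genes did. After median-ratio rescaling 6 of the 78 rose and 29 fell, to be read, like the rescaled counts of the single lists, against 13.8% and 15.5% of all tested genes. Their median log2 fold change was -0.03, against 0.12 for all tested genes. With the fold change threshold added, 1 was called upregulated and 2 downregulated.

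**Figure D4:**
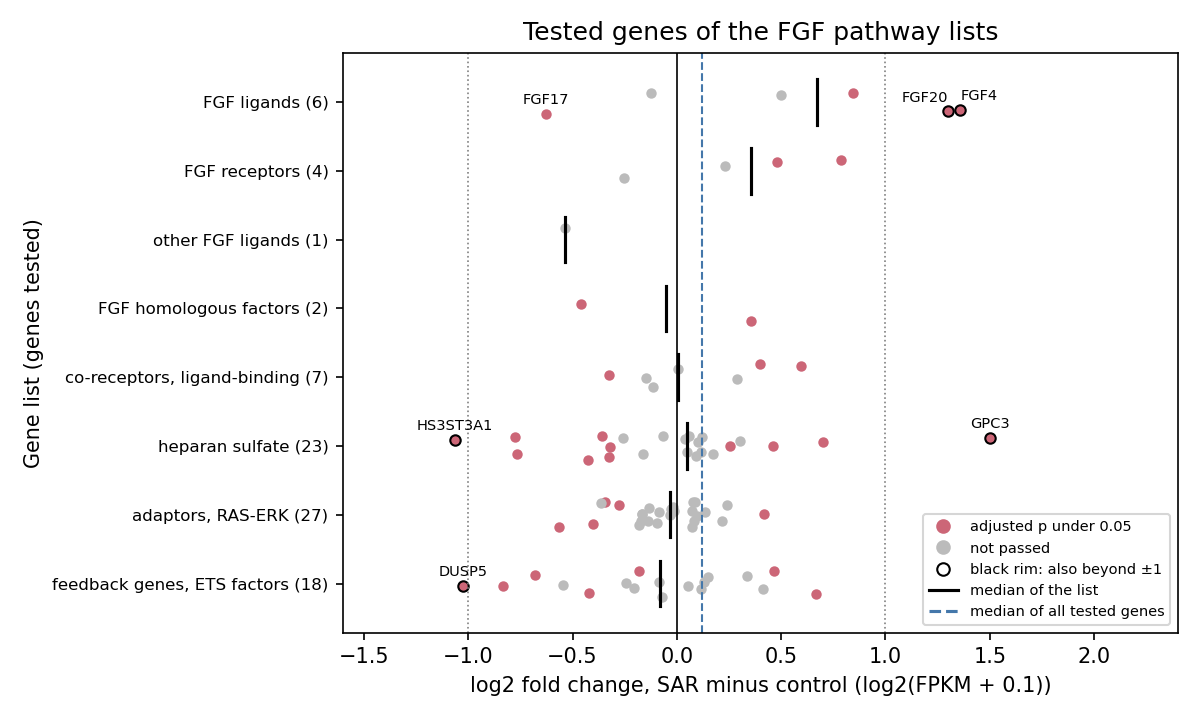
Log2 fold change (SAR minus control) of the 10 FGF genes and every tested gene in the FGF pathway lists, 1 point per gene, with the number tested in brackets. Red marks an adjusted p under 0.05, a black rim a call beyond the fold change threshold, short bars the median of a list and the dashed line the median of all tested genes. GPC3, at 1.5, lies furthest to the right, and HS3ST3A1 and DUSP5 lie just past -1.

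Heparan sulfate, the polysaccharide that holds FGF and receptor together, is carried by glypicans and syndecans. Of 29 genes for its core proteins and enzymes, 23 were tested, of which 4 rose and 7 fell (2 and 9 after median-ratio rescaling). GPC3, a glypican, was at 24.5, 18.7 and 21.3 FPKM in control replicates 1, 2 and 3 and at 55.9, 59.8 and 66.8 FPKM in SAR replicates 1, 2 and 3. The groups were far apart, and GPC3 was called upregulated at 1.5 ± 0.112 on the log2 scale (standard error), with an adjusted p of 0.000493 in limma. HS3ST3A1, an enzyme that adds 3-O-sulfate to the chains, was at 1.60 ± 0.0815 FPKM in control and 0.713 ± 0.0214 FPKM with SAR, and was called downregulated (log2 fold change -1.06, adjusted p = 0.00177 from limma). Its paralog HS3ST3B1, named after its values were seen, fell by 0.78 on the log2 scale. The most abundant core proteins were GPC4, at 237.9 ± 9.39 FPKM in control and 268.6 ± 16.6 FPKM with SAR, and SDC4, at 65.5 ± 2.71 and 70.0 ± 5.81 FPKM, and neither passed the test.

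Of 12 co-receptors and ligand-binding proteins 7 were tested, and 2 rose and 1 fell. FLRT3, a membrane protein that binds FGF receptors, rose from 16.2 ± 1.63 to 24.5 ± 0.531 FPKM (log2 fold change 0.60, limma adjusted p = 0.00298). CDH2, N-cadherin, fell from 100.1 ± 10.5 to 79.5 ± 2.57 FPKM (-0.33). KLB and KL, the Klotho co-receptors, were under the minimum level, with 4 to 25 reads of KLB and 2 to 22 reads of KL per library. These and FGFRL1, the decoy receptor without a kinase domain, are named after their values were seen. FGFRL1 was at 5.57 ± 0.409 FPKM in control and 5.58 ± 0.0782 FPKM with SAR (log2 fold change 0.01, adjusted p = 0.951 from limma).

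All 27 adaptors and RAS-ERK transducers were tested, and 1 rose and 4 fell (1 and 10 after median-ratio rescaling), all within the fold change threshold. MAP2K1, which encodes the ERK kinase MEK1, fell from 50.7 ± 1.41 to 34.3 ± 0.992 FPKM (log2 fold change -0.56, adjusted p = 0.000819 from limma). MAP2K2, which encodes MEK2 and was picked for its values, rose from 23.7 ± 0.468 to 31.7 ± 2.16 FPKM (0.42, adjusted p = 0.00427 from limma). CRKL, an adaptor, was at 42.0 ± 1.72 FPKM in control and 37.4 ± 3.32 FPKM with SAR and did not pass as deposited, but did after median-ratio rescaling (log2 fold change -0.29, adjusted p = 0.0328 from limma).

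Of 19 feedback genes and ETS factors that respond to FGF and ERK, 18 were tested, and 2 rose and 5 fell (1 and 8 after median-ratio rescaling). DUSP5, a phosphatase of nuclear ERK, was at 54.3, 53.7 and 55.4 FPKM in control replicates 1, 2 and 3 and at 26.6, 27.5 and 26.0 FPKM in SAR replicates 1, 2 and 3. Every SAR library was lower than every control library, and DUSP5 was called downregulated at -1.03 ± 0.0476 on the log2 scale (standard error), with an adjusted p of 0.000107 in limma. EGR1, an immediate early gene, was at 42.5 ± 9.03 FPKM in control and 53.0 ± 5.82 FPKM with SAR and did not pass (adjusted p = 0.145 from limma). Named after their values were seen, SPRY4 fell by 0.42 and DUSP4 by 0.68 on the log2 scale, SPRED1 rose by 0.46, and DUSP6 was at 19.3 ± 0.613 and 21.3 ± 3.34 FPKM, with a log2 fold change of 0.13 (limma adjusted p = 0.383).

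Marker genes of the cells that the cultures could hold were read in the same libraries, and both rises and falls were seen among them. All 12 DE markers were tested, and 5 rose and 6 fell. The counts of all marker lists are to be read against 23.7% of all tested genes that rose and 9.55% that fell. As deposited, SOX17, FOXA2 and HHEX were called upregulated and GATA4, CER1, EOMES and GSC downregulated, against 3.41% and 1.58% of all tested genes. After median-ratio rescaling SOX17 and HHEX were under the fold change threshold (0.93 and 0.90). FOXA2 rose from 23.6 ± 1.39 to 64.0 ± 3.66 FPKM and SOX17 from 31.6 ± 1.84 to 67.5 ± 18.3 FPKM, whereas CXCR4 fell from 117.9 ± 3.78 to 83.2 ± 10.8 FPKM. The 12 markers summed to 3975 to 5082 FPKM in control and to 2096 to 2148 FPKM with SAR, most of it from CER1. Of the 8 pluripotency markers 2 rose (1 after median-ratio rescaling) and 1 fell, NANOG, from 14.7 ± 1.71 to 5.89 ± 0.604 FPKM, and their sum was 517.2 to 638.9 FPKM in control and 629.6 to 688.2 FPKM with SAR. Of the 10 primitive streak and mesoderm markers 5 were tested, and 2 rose and 2 fell. TBXT rose from 3.51 ± 0.245 to 11.7 ± 2.15 FPKM, and MIXL1 fell from 44.7 ± 1.20 to 17.8 ± 4.30 FPKM. The 10 genes summed to 62.9 to 65.7 FPKM in control and 39.0 to 51.2 FPKM with SAR, most of it from MIXL1 and KDR, with MESP1 and MSGN1 at 0 to 4 reads per library. Of the 5 node and notochord markers 3 were tested and all 3 rose. Their control means were 0.0656 (NOTO), 0.274 (CHRD) and 0.463 FPKM (FOXJ1), so they reached the minimum level only through the SAR libraries. A rise was thus nearly fixed once they were tested, and the count is no support. The 5 genes summed to 0.738 to 1.51 FPKM in control and 12.7 to 20.7 FPKM with SAR. Of that sum, FOXJ1 alone was 0.380 to 0.600 FPKM in control and 8.28 to 14.6 FPKM with SAR. The neural ectoderm list (7 genes, 2 tested, 1 rose) summed to 54.4 to 68.9 FPKM in control and 65.1 to 82.2 FPKM with SAR, nearly all from NES, with SOX1 at 0 to 7 reads. Its gene that rose was SIX3, from 0.343 ± 0.112 to 1.14 ± 0.160 FPKM, and NES did not pass. SIX3 too reached the minimum level only through the SAR libraries. The extraembryonic endoderm, amnion and trophoblast list (9 genes, 2 tested, 1 rose) summed to 18.8 to 25.4 FPKM in control and 15.9 to 30.7 FPKM with SAR, most of it from APOA1. Here GATA3 was the gene that rose, from 0.964 ± 0.169 to 2.17 ± 0.552 FPKM, and APOA1 did not pass. CER1, GATA4, EOMES, HHEX, GSC, KDR, MESP1, MSGN1, NOTO, CHRD, FOXJ1, NES, SOX1, SIX3, APOA1 and GATA3 are named after their values were seen. The part of these cell types in the levels of the FGF genes was not tested.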

How the data were processed

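RNA-seq libraries from 3 control and 3 SAR samples were grouped by the sample titles, and each column of the table matched 1 sample by its label. The authors deposited FPKM per gene and library, without pooling. Per the labels, their processing notes name HISAT2, featureCounts (Subread), DESeq2 and GRCh38.p13. Versions, annotation release and strand setting are not given in the sources used here. FPKM are scaled only by library total and gene length.

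Because FPKM are not counts, limma 3.58.1 (R 4.3.3) was used on log2(FPKM + 0.1), with an intensity trend, a minimum mean of 0.5 FPKM and Benjamini-Hochberg adjustment. Thresholds (adjusted p under 0.05, absolute log2 fold change above 1) followed the study. The script was tested on simulated data. Whole reads (within 0.01) were recovered from the FPKM for 40395 of 40396 genes. Of the 39023 IDs in GENCODE 29, 59.2% gave whole reads at the GENCODE 29 length. Libraries of 1 group differed beyond counting noise (chi-square 3.64 to 12.0 per degree of freedom), so none was counted as a duplicate. Counts cover counting error only.

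The FGF genes and lists were chosen with earlier results of these data known. Named were the 10 genes, the called genes (up to 5) and the 2 highest genes of each pathway list, 8 markers (SOX17, FOXA2, CXCR4, POU5F1, NANOG, SOX2, TBXT and MIXL1), and the 3 genes nearest to each called member; others are said to be named after their values were seen. Alternatives were other pseudocounts, filters and scalings, no trend, a replicate block, no minimum fold change, voom on the recovered reads and each library left out. Summaries used Python 3.11.15, pandas 2.3.3 and matplotlib 3.10.9.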

Additional observations from a re-analysis of the deposited data

How the results depend on the processing

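FGF4 was called upregulated under all the alternatives tried. With a pseudocount of 1, 1 FGF gene was called upregulated (FGF4), 1 pathway gene was called downregulated, and of all genes 169 were higher and 141 lower, against 559 and 259. Without a minimum fold change, 5 FGF genes were higher and 1 lower, 10 pathway genes were higher and 18 lower, and 3885 and 1563 of all genes. There were 340 higher and 409 lower genes after quantile normalization and 369 higher with a minimum mean of 1 FPKM. Leaving out 1 library gave 440 to 722 higher and 215 to 338 lower genes, 4 to 6 FGF genes higher and 1 to 2 lower by adjusted p alone, and 2 to 3 pathway genes called downregulated. Voom on the recovered reads also passed FGF2 (adjusted p = 0.0434 from limma) and FGFR3 (0.0486), and without SAR replicate 1 FGFR3 passed as well (0.0468). None of the 10 fold changes changed sign. Under quantile normalization and with each library left out, the share of FGF17 among the ligands differed by -7.71 to -6.54 percentage points (SAR minus control), and that of FGFR1 among the receptors by 4.93 to 6.73. With a replicate block 546 genes were higher and 274 lower, and the FGF calls were the same. Deviations of control and SAR libraries with the same number correlated at 0.073, 0.003 and 0.025, and control replicate 2 correlated best with SAR replicate 3 (0.067), so the numbers were not taken as pairs. FGF20, on 23 to 76 reads per library, is limited most by depth.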

Other observations

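The genes nearest to FGF4 in pattern were FZD1, a Wnt receptor, PIFO, a gene of primary cilium disassembly, and MCOLN3, an endolysosomal cation channel. Likeness was the root mean square difference of log2(FPKM + 0.1) relative to the control mean over the 6 libraries. It was taken among 12657 genes with a symbol and a mean of at least 1 FPKM. A small difference thus means mainly a log2 fold change of like size (1.35 for FZD1, 1.41 for PIFO and 1.40 for MCOLN3). Joint regulation was not tested. FZD1 differed from FGF4 by 0.068 and was at 0.692 FPKM in control and 1.92 FPKM with SAR, PIFO by 0.088 (2.06 and 5.64 FPKM), and MCOLN3 by 0.089 (0.690 and 1.99 FPKM). For FGF20 the nearest were AZU1, a neutrophil granule protein, at 0.090, the antisense transcript SNTG2-AS1 at 0.165 and the ribosomal protein pseudogene RPL23P2 at 0.188. FZD1, MCOLN3 and RPL23P2 reached the mean of 1 FPKM only through the SAR libraries.

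Below the minimum level and named after their values were seen, FGF18, of the same subfamily as FGF8 and FGF17, had 4 to 12 reads per control library and 17 to 18 reads per SAR library. FGF10, a mesenchymal ligand of FGFR2, had 45 to 80 reads in control and 25 to 36 with SAR. Reads are not scaled for the library totals, which were larger in control. By FPKM, FGF18 was at 0.168 ± 0.0926 in control and 0.511 ± 0.0262 with SAR, and FGF10 at 0.457 ± 0.0740 and 0.283 ± 0.0534. The groups did not overlap for either gene, as was so for 50.7% of all tested genes, and neither was tested.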
